A study of Mus musculus with 8 samples.

Results

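The osteoblast transcription factors Runx2, Sp7, Dlx3, Dlx5, Dlx6, Msx1, Msx2, Atf4 and Creb3l1 were followed in long bones of Hyp and wild-type (WT) mice. Members were all probe sets that the platform annotation gives to exactly 1 of these 9 symbols. This gave 13 of 45037 probe sets tested, for 8 of the 9 genes. Runx2 carried no probe set by this rule and was not analysed here. Hyp mice carry a 3′ deletion of Phex on a C57BL/6 background, and the labels give the strain of the WT mice only as wild type. All mice were males aged 12 days on a standard diet. RNA from tibia and femur was hybridised to 8 arrays, 4 per genotype, with 2 bone samples of 1 genotype combined for each RNA. The labels call the 4 of a genotype separate samples and do not give the number of animals, so each p-value refers to variation among RNA samples, which may be technical.

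These factors act in sequence as mesenchymal cells become osteoblasts. Runx2 commits cells to the lineage, and Sp7 (osterix), a zinc finger factor, is needed after it for osteoblasts to form. The Dlx and Msx proteins are homeodomain factors that share DNA sites, with Dlx proteins mostly acting as activators and Msx proteins as repressors. Atf4, a factor of the basic leucine zipper class whose protein is controlled mainly at translation, drives amino acid supply and late osteoblast genes. Creb3l1 (OASIS) is a membrane-bound factor of the endoplasmic reticulum that is released by proteolysis and drives collagen secretion in osteoblasts.

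The deposited values are on the log2 scale, and each probe set has a median of 0 across the arrays. Only differences can be read from such values, so neither the order of expression between genes nor the absence of a defining marker could be read. Where the groups do not overlap, this centring makes the innermost values of both groups mirror images. All differences below are Hyp minus WT on this scale. The Phex probe sets lay at -8.31 ± 0.21 (SE, n = 4 per group) and -5.03 ± 0.20 (limma adjusted p of 5.22e-08 and 2.15e-06, respectively), in the direction the labels give, though their place relative to the deletion was not examined. WT replicate 3 stood apart from the other arrays, at -38.4 on the second principal component (22.6% of the variance) against -10.3 to 17.5.

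Promoter sequences are shown for 2 members with values, Atf4 and Msx2, and for Chac1 and Ifitm5, 2 genes downstream of these factors that fell in Hyp bone. They are the 250 bases before the start site in RefSeq, 5′ to 3′. RefSeq promoters were given here for 4 of the 9 factors. Capitals mark matches on either strand to ACCACA (the core bound by Runx factors), TAATTA (homeodomain factors), GGGCGG (the GC box of Sp factors), TGACG (the core of cAMP response elements) and TGATGNAA (composite elements of C/EBP and ATF factors).
Atf4 (GRCm38.p6, chr15:80254934-80255183, plus strand): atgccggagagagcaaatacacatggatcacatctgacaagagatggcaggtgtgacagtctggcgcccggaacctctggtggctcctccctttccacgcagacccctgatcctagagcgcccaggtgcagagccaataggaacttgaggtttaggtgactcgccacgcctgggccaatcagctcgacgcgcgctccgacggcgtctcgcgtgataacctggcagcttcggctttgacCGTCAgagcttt
Msx2 (GRCm38.p6, chr13:53472781-53473030, minus strand): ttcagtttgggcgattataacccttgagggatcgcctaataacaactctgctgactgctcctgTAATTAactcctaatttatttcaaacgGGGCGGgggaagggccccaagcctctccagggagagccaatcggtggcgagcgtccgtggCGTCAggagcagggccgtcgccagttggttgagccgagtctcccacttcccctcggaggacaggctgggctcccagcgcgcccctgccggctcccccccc
Chac1 (GRCm38.p6, chr2:119350992-119351241, plus strand): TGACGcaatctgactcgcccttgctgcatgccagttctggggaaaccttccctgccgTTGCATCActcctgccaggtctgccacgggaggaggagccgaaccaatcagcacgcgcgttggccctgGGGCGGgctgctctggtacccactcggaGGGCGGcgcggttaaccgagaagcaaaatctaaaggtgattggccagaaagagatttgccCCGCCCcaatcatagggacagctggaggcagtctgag
Ifitm5 (GRCm38.p6, chr7:140950244-140950493, minus strand): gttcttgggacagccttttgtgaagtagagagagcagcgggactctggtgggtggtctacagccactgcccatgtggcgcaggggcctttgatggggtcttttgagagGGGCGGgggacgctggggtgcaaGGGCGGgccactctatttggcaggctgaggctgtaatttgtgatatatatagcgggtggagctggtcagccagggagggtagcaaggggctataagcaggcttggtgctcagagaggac
In Atf4 the match was a TGACG core at positions -12 to -8 from the start site. Msx2 held TAATTA, a GC box and a TGACG core. Chac1 held the composite element at -193 to -186 in the reverse direction, a TGACG core and 3 GC boxes, and Ifitm5 held 2 GC boxes, at -142 to -137 and -119 to -114. Overlapping matches were counted separately. Of 32851 promoters of this length, 14% held ACCACA, 4.84% TAATTA, 32.7% GGGCGG, 17.8% TGACG and 3.45% TGATGNAA. A match describes the letters of the window and does not show binding.

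Sp7, Dlx3, Dlx5 and Creb3l1 were lower in Hyp bone, and Dlx6, Msx1 and Msx2 were not. Of the 13 probe sets 6 fell and none rose (limma, Benjamini-Hochberg adjusted p under 0.05 over all probe sets), where 3.91% of all probe sets fell and 3.22% rose. In either direction, 10 of the 13 had an unadjusted limma p under 0.05, against 22.1% of all probe sets. Among these, Msx1 1448601_s_at, Msx2 1438351_at and Atf4 1439258_at were higher in Hyp and the others lower. On gene means, which average a gene's probe sets on each array, 4 of the 8 genes fell and none rose, against 6.32% and 6.54% of 18193 genes. The median difference was -0.286 over the 8 genes and 0.025 over all genes. The arrays of the 2 genotypes did not overlap for 7 probe sets with lower and 2 with higher values in Hyp, against 7.13% and 8.33% of all probe sets. On gene means this held for 5 lower and 1 higher of the 8 genes, against 8.89% and 10.3% of all genes. In bulk bone RNA, fewer osteoblasts and less RNA per osteoblast cannot be told apart.

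**Figure D1:**
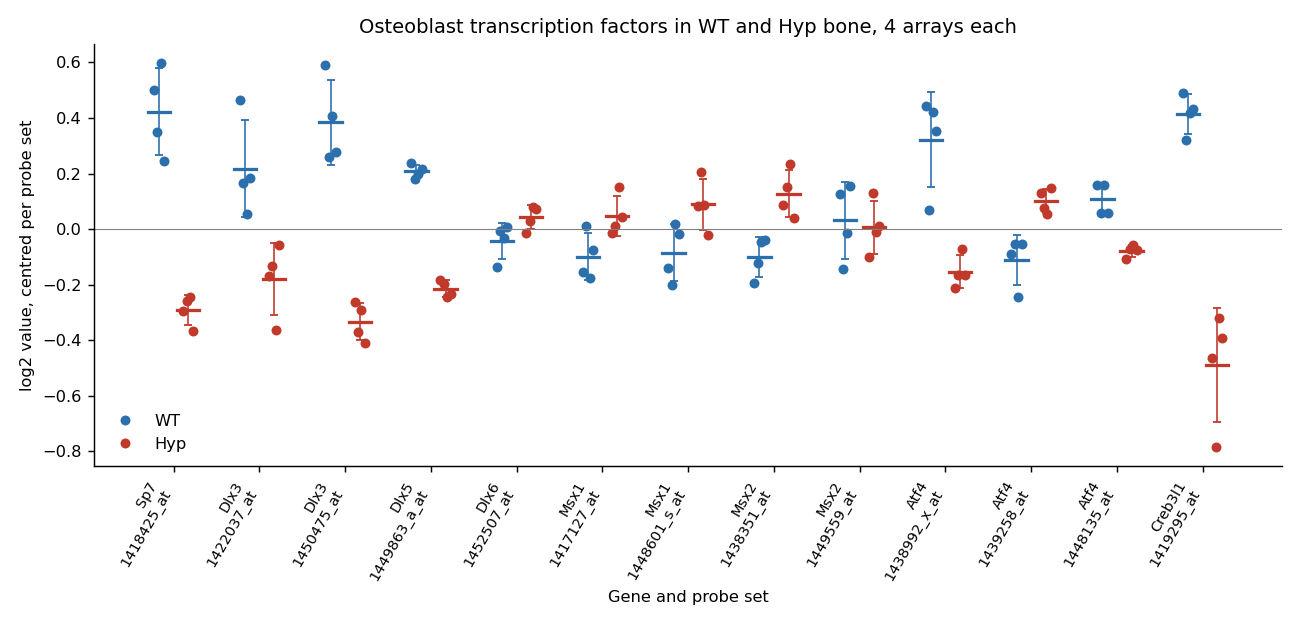
Values of the 13 probe sets on each array (y axis, log2 value centred per probe set; x axis, gene and probe set), WT in blue and Hyp in red, with the mean (bar) and SD (whiskers) of 4 arrays. Both genotypes are clearly apart for Sp7, Dlx5, Creb3l1 and the Dlx3 probe set 1450475_at, and they overlap for Dlx6, both Msx1 probe sets and Msx2 1449559_at.

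Creb3l1 showed the largest difference of the 8 genes. Its 1 probe set (1419295_at) read -0.46, -0.78, -0.32 and -0.39 on the Hyp arrays and 0.49, 0.32, 0.42 and 0.43 on the WT arrays. Hyp replicate 2 was the lowest, and the gap between the groups was 0.64. The difference was -0.91 ± 0.10 (SE, n = 4 per group; limma adjusted p = 0.000424), which is 46.6% lower on the linear scale. It ranked 162 from the lowest of 45037 probe sets. Without Hyp replicate 2 the difference was -0.81.

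Sp7, the factor that follows Runx2 in osteoblast formation, read -0.29, -0.26, -0.24 and -0.37 in Hyp and 0.50, 0.35, 0.60 and 0.24 in WT (1418425_at). The Hyp arrays lay within 0.12 of each other, while the WT arrays spanned 0.35. Its difference was -0.71 ± 0.08 (SE; limma adjusted p = 0.000594), or 39% lower on the linear scale.

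Both probe sets of Dlx3, a homeodomain factor of bone, tooth and hair, fell. At 1450475_at the values were -0.26, -0.37, -0.29 and -0.41 in Hyp and 0.59, 0.26, 0.41 and 0.28 in WT. The groups lay 0.52 apart there, with a difference of -0.72 ± 0.08 (SE; limma adjusted p = 0.000597). At 1422037_at the values were -0.17, -0.13, -0.36 and -0.06 in Hyp and 0.46, 0.17, 0.06 and 0.19 in WT. This probe set had the narrower gap, 0.11, and a difference of -0.40 ± 0.10 (SE; limma adjusted p = 0.0352). It missed the threshold without Hyp replicate 1, 2 or 3 or WT replicate 1, 2 or 4 (adjusted p from 0.062 to 0.0929). The 2 probe sets differed from each other by 0.32 ± 0.11 in their response, which did not pass a limma fit over all 30372 pairs of probe sets of 1 gene (adjusted p = 0.208). On the gene mean Dlx3 fell by 0.56 ± 0.07 (SE; limma adjusted p = 0.000758).

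Dlx5, a homeodomain factor induced early by BMP signals in osteoblasts, had closely spaced values within each genotype. They were -0.18, -0.20, -0.24 and -0.23 in Hyp and 0.24, 0.18, 0.20 and 0.22 in WT (1449863_a_at). The SDs were 0.029 in Hyp and 0.025 in WT, and the difference was -0.42 ± 0.05 (SE; limma adjusted p = 0.00106), or 25.4% lower. Dlx6, the next protein-coding gene to Dlx5 on chromosome 6 in RefSeq, read -0.012, 0.028, 0.081 and 0.074 in Hyp and -0.14, -0.008, -0.033 and 0.008 in WT (1452507_at). The groups overlapped, and the difference of 0.08 ± 0.06 did not pass (adjusted p = 0.442; 95% interval -0.046 to 0.22).

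The pair was compared directly by taking Dlx5 minus Dlx6 on each array. This contrast was -0.26 ± 0.07 (SD, n = 4) in Hyp and 0.25 ± 0.08 in WT, a difference of -0.51, with no overlap (exact two-sided permutation p = 0.0286, the smallest 4 against 4 arrays can give; 0.0429 adjusted over 3 pairs). Dlx3 minus Dlx5 differed by -0.14 (the same p and adjusted p), and by -0.069 without WT replicate 1. Both calls were lost when WT replicate 1 or any 1 Hyp array was left out (exact permutation, adjusted p = 0.0857 for Dlx5 minus Dlx6 and 0.0857 to 0.171 for Dlx3 minus Dlx5). For Dlx5 minus Dlx6 the groups still did not overlap, so its unadjusted p stayed the smallest that the remaining arrays can give. Only the adjustment over 3 pairs changed, so its loss cannot show whether this contrast rests on 1 array. Dlx4, the neighbour of Dlx3 on chromosome 11, lay at 0.02 ± 0.06 on its gene mean (limma adjusted p = 0.843). Dlx1 and Dlx2, homeodomain factors best known from the forebrain and jaw, lay at 0.04 ± 0.09 and -0.11 ± 0.09 (limma adjusted p = 0.83 and 0.481). Of the 6 measured Dlx genes Dlx3 and Dlx5 passed, and only the Dlx5 and Dlx6 contrast and the Dlx3 and Dlx5 contrast were tested between Dlx genes.

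Msx1 and Msx2, repressor-type homeodomain factors of the early skeleton, lay slightly above 0 in Hyp bone and did not pass. The Msx1 probe sets lay at 0.15 ± 0.07 (1417127_at) and 0.17 ± 0.07 (1448601_s_at), with limma adjusted p = 0.227 and 0.192. On its gene mean Msx1 read 0.036, 0.11, 0.12 and 0.011 in Hyp and -0.15, -0.094, -0.080 and -0.046 in WT. These 2 groups did not overlap, and the difference was 0.16 ± 0.05 (SE; limma adjusted p = 0.0562; 95% interval 0.052 to 0.27). The Msx2 probe sets gave different readings. At 1438351_at the Hyp arrays read 0.086, 0.15, 0.24 and 0.039 and the WT arrays -0.19, -0.12, -0.046 and -0.039, a difference of 0.23 ± 0.07 (limma adjusted p = 0.0684). At 1449559_at the groups overlapped and the difference was -0.03 ± 0.08 (adjusted p = 0.891). The response of the 2 Msx2 probe sets did not differ past the threshold (0.25 ± 0.10, limma adjusted p = 0.269), nor did Msx1 minus Msx2 differ between genotypes (0.06; exact two-sided permutation p = 0.171, also after adjustment). Without WT replicate 2 that contrast was 0.092 and passed (exact permutation, adjusted p = 0.0286).

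The 3 probe sets of Atf4 did not move together. At 1438992_x_at, whose suffix marks probes shared with other transcripts, the Hyp arrays read -0.21, -0.16, -0.07 and -0.16 and the WT arrays 0.45, 0.07, 0.42 and 0.35. WT replicate 2 was the lowest WT array, and the probe set fell by 0.48 ± 0.09 (SE; limma adjusted p = 0.0084). At 1448135_at Hyp read -0.11, -0.07, -0.06 and -0.07 and WT 0.16, 0.06, 0.16 and 0.06, a difference of -0.19 ± 0.06 (limma adjusted p = 0.0793). At 1439258_at the order was turned, with 0.13, 0.07, 0.05 and 0.15 in Hyp and -0.09, -0.06, -0.24 and -0.05 in WT. That difference was 0.21 ± 0.06 (limma adjusted p = 0.0779), and the groups did not overlap at any of the 3. The first and last of these differed from each other by -0.69 ± 0.12 in their response (limma adjusted p = 0.0299 over all pairs, of which 0.876% passed). That call was lost when any 1 Hyp array, WT replicate 1 or WT replicate 4 was left out (adjusted p from 0.0567 to 0.112). The gene mean of Atf4, -0.15 ± 0.05 (limma adjusted p = 0.0679), averages these opposed readings, and it was 0.013 with the probe set of shared probes left out (adjusted p = 0.896). Which of these probe sets reports Atf4 was not tested.

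**Figure D2:**
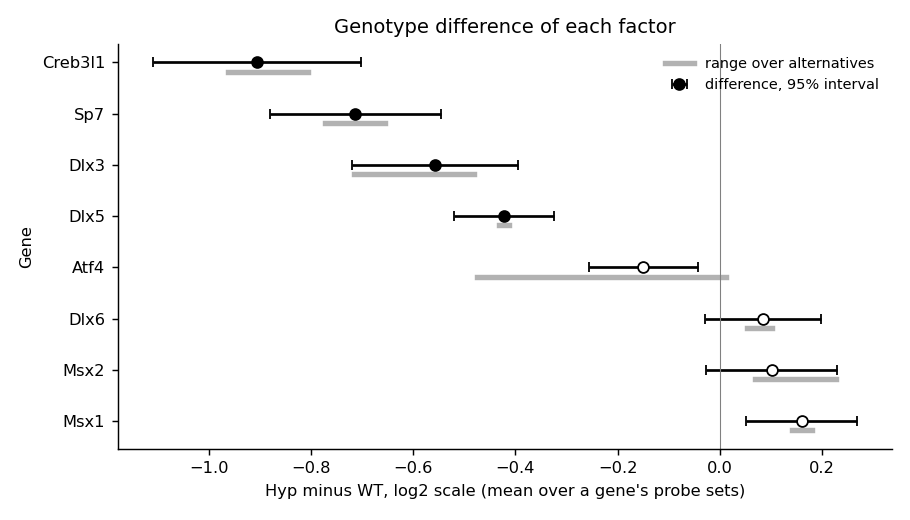
Gene mean difference of each factor (x axis, Hyp minus WT, log2 scale; y axis, gene), with its 95% interval from the limma fit and, as grey bars, the range over the other processing settings. Filled points are those with adjusted p under 0.05: Creb3l1, Sp7, Dlx3 and Dlx5 lie between -0.91 and -0.42, and the range for Atf4 spans -0.48 to 0.013.

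Most measured genes on a list of Runx2 and Sp7 targets were lower in Hyp bone. Of 16 measured of 22 listed, 12 fell and 2 rose, with a median difference of -0.574, and 10 fell with WT replicate 3 and Hyp replicate 2 left out. Of all genes 6.32% fell and 6.54% rose, which is the background for the lists below too. Most of the 16 are also counted below as osteoblast markers. Earlier results of these data had shown several of them to fall, so neither count adds independent evidence. Sost, the Wnt antagonist of osteocytes, fell by 1.85 ± 0.14 (SE; limma adjusted p = 4.73e-05). Tmem119, a membrane protein of osteoblasts, fell by 0.75 ± 0.06. Ifitm5, the membrane protein of mineralizing osteoblasts whose promoter with 2 GC boxes is printed above, read -0.77, -0.95, -0.46 and -0.58 in Hyp and 0.60, 0.46, 0.53 and 0.53 in WT, and fell by 1.22 ± 0.09 (limma adjusted p = 4.89e-05). Named after their values were seen, Mmp13 (collagenase 3) rose by 0.52 ± 0.06 and Col1a1 by 0.47 ± 0.12 (adjusted p = 0.000274 and 0.026), and Ibsp (bone sialoprotein) and Dmp1, at -0.17 ± 0.06 and 0.14 ± 0.07, did not pass (adjusted p = 0.117 and 0.201). Col1a2, on the same list and also named after its value was seen, fell by 0.47 ± 0.08 (limma adjusted p = 0.0033). Only 1 of the 16 rose without Hyp replicate 2 or 3 or WT replicate 1, 2 or 4. The list is not complete. Col10a1, a hypertrophic chondrocyte marker outside it and named after its value was seen, rose by 2.57 ± 0.28 (SE; limma adjusted p = 0.000227).

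Among relatives, proteases and secretory partners of Creb3l1, 12 of 17 measured genes fell, none rose and 5 did not pass, with a median of -0.305. Of all genes 6.32% fell and 6.54% rose. With WT replicate 3 and Hyp replicate 2 left out, 10 of the 17 fell. This list too was chosen with earlier results of these data known, so its count adds no independent evidence. Copz2, a coat subunit of Golgi vesicles, read -0.44, -0.45, -0.29 and -0.40 in Hyp and 0.36, 0.29, 0.49 and 0.37 in WT, and fell by 0.77 ± 0.06 (SE; limma adjusted p = 4.89e-05). Kdelr3, which returns chaperones to the endoplasmic reticulum, fell by 0.85 ± 0.07, and Sec23a, a subunit of the coat that carries procollagen out of it, by 0.72 ± 0.06 (limma adjusted p = 5.25e-05 for both). Among relatives, and named after their values were seen, Creb3 fell by 0.31 ± 0.05 (adjusted p = 0.00181) while Creb3l2, the closest relative of Creb3l1, lay at -0.05 ± 0.06 (adjusted p = 0.6). Of the proteases that release these factors, Mbtps2 fell by 0.22 ± 0.05 (adjusted p = 0.0186) and Mbtps1 lay at -0.02 ± 0.12 (adjusted p = 0.941).

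Genes downstream of Atf4 split. Of 26 measured, 6 fell, 1 rose and 19 did not pass, with a median of 0.007. None rose without Hyp replicate 1, 3 or 4 or WT replicate 1, 2 or 4, and 2 rose without Hyp replicate 2 or WT replicate 3. Nupr1, a stress-induced chromatin protein, fell by 1.04 ± 0.13 (SE; limma adjusted p = 0.000485). Chac1, which breaks down glutathione and whose composite element is printed above, read -0.51, -0.32, -0.18 and -0.36 in Hyp and 0.41, 0.18, 0.25 and 0.45 in WT, and fell by 0.67 ± 0.08 (limma adjusted p = 0.000502). Psat1, an enzyme of serine synthesis, fell by 0.41 ± 0.06 (adjusted p = 0.00129). In windows of the same length the composite element was also present in Nupr1, Vldlr and Gars, which fell. It was present as well in Asns, Slc7a11, Atf3 and Aars, which did not pass, and absent from Psat1 and Mthfd2, which fell. A link between the element and the differences was not tested. Named after their values were seen, Slc7a5, an amino acid transporter, was the gene that rose (0.21 ± 0.06, limma adjusted p = 0.0488), and Asns (asparagine synthetase), Ddit3 (CHOP) and Trib3 lay at -0.02 ± 0.07, 0.05 ± 0.05 and 0.15 ± 0.15 (adjusted p = 0.878, 0.585 and 0.553). Of 11 kinases and partners upstream of Atf4, 1 fell and 1 rose (median 0.006): Eif2ak3 (PERK), the kinase that senses stress in the endoplasmic reticulum, by -0.22 ± 0.06, and Ppp1r15a (GADD34), which reverses its effect, by 0.30 ± 0.07 (adjusted p = 0.0274 and 0.0224). Eif2ak3 missed the threshold without any 1 Hyp array or WT replicate 1 or 2 (adjusted p from 0.0513 to 0.0892), and Ppp1r15a without Hyp replicate 3 or 4 (0.0591 and 0.0584).

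**Figure D3:**
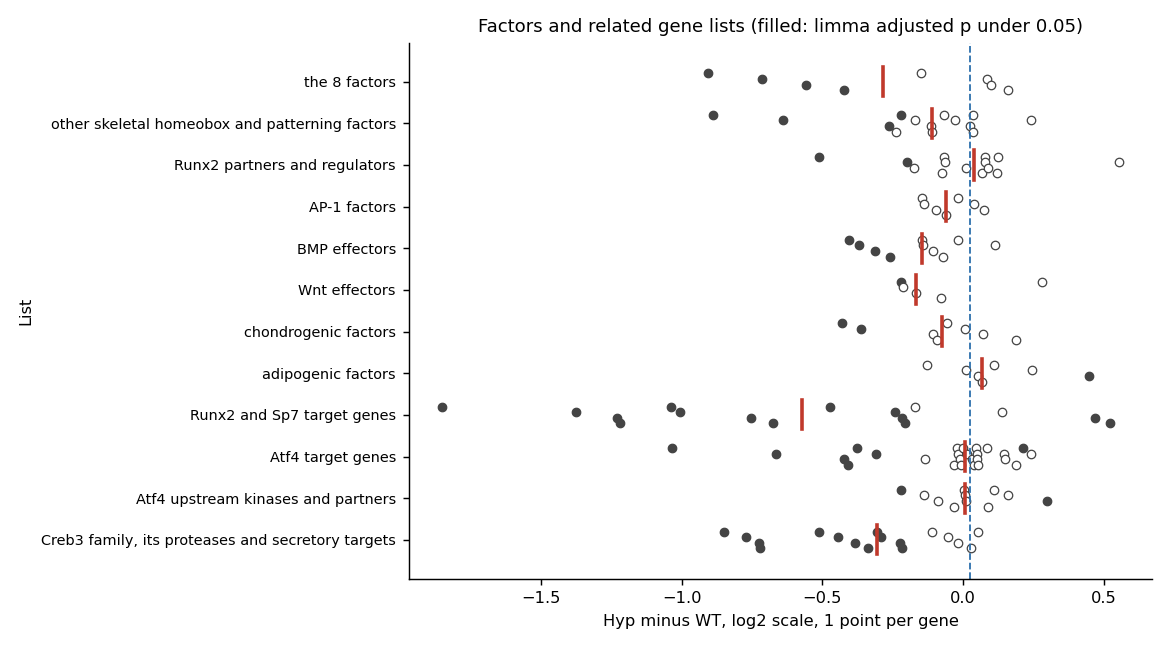
Differences of single genes in the 8 factors and 11 related lists (x axis, Hyp minus WT, log2 scale, gene means; y axis, list). Filled points have limma adjusted p under 0.05, red bars are list medians and the dashed line is the median of all genes (0.025); the lists with the lowest medians, -0.574 and -0.305, are the Runx2 and Sp7 targets and the Creb3 list.

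Some other transcription factors of skeletal cells were lower too. Of 14 other homeobox and patterning factors 4 fell and none rose (median -0.112), and 2 fell with the muscle marker mean as a covariate or without WT replicate 1 or 4. Twist1, a repressor of Runx2 activity, read -0.61, -0.95, -0.19 and -0.18 in Hyp and 0.62, 0.18, 0.51 and 0.32 in WT, and fell by 0.89 ± 0.17 (SE; limma adjusted p = 0.00578). Hoxa10, a limb patterning factor, fell by 0.22 ± 0.05 (adjusted p = 0.016) but lay at 0.025 without probe sets ending in _x_at, _s_at or _a_at. Prrx1, of early limb mesenchyme, fell by 0.26 ± 0.07 (adjusted p = 0.0294). That call was lost without Hyp replicate 2 or 3 or WT replicate 1, 2 or 4 (0.0521 to 0.0923). Hoxa11, named after its value was seen, fell by 0.64 ± 0.17 (adjusted p = 0.0342). Of 14 partners and regulators of Runx2, 2 fell and none rose (median 0.039). Hey1, a Notch and BMP target, fell by 0.51 ± 0.11 and Cbfb, the partner subunit of Runx proteins, by 0.20 ± 0.05 (limma adjusted p = 0.0143 and 0.0188). Cbfb missed the threshold without Hyp replicate 1 or 3 or WT replicate 1 (adjusted p from 0.051 to 0.0555), and 1 of the 14 rose without WT replicate 3.

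Effectors of BMP signals, which induce Dlx5, Runx2 and Msx2 in osteoblasts, included 4 of 10 that fell and none that rose (median -0.144). The inhibitory Smad6 and Smad7 fell by 0.41 ± 0.08 and 0.26 ± 0.06 and Id3, a direct BMP target, by 0.31 ± 0.07 (SE; limma adjusted p from 0.011 to 0.0136). Its relative Id1, named after its value was seen, was the other that fell, by 0.37. Of 5 Wnt effectors Ctnnb1 (beta-catenin) fell by 0.22 ± 0.05 (adjusted p = 0.0212; list median -0.167), and 2 fell and 1 rose without WT replicate 3, with or without Hyp replicate 2. Ctnnb1 missed the threshold without Hyp replicate 1, 2 or 3 or WT replicate 1, 2 or 4 (adjusted p from 0.0509 to 0.069). Of 8 factors of cartilage 2 fell (median -0.074), Mef2c, which also acts on Sost in osteocytes, by 0.43 ± 0.08 and Trps1 by 0.36 ± 0.07 (adjusted p = 0.00431 and 0.00553), and 1 rose without WT replicate 3. Sox9, the main cartilage factor, named after its value was seen, lay at -0.06 ± 0.07 (adjusted p = 0.633). Of 7 adipogenic factors Cebpa rose by 0.45 ± 0.08 (adjusted p = 0.00365; list median 0.068). None of 7 AP-1 factors passed (median -0.059), with Fosl2, a factor of osteoblast maturation named after its value was seen, at -0.15 ± 0.05 (adjusted p = 0.0851).

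The genes with the array pattern nearest to each changed factor were found by the root mean square (RMS) difference over the 8 arrays of gene means. For Sp7 they were Col24a1, a fibrillar collagen (RMS difference 0.067), Gpx8 (0.072), a peroxidase of the endoplasmic reticulum, and Plcd1 (0.078). For Creb3l1 they were Pcolce, an enhancer of procollagen processing (0.064), Rcn3, a calcium-binding protein of the secretory pathway (0.069), and Carmil1 (0.078). For Dlx3 they were Cdh2 (N-cadherin, 0.052), Ckap4 (0.069) and Cercam (0.075), and for Dlx5 they were Gne (0.030), an enzyme of sialic acid synthesis, Sec22b (0.032), of vesicle fusion, and Maged1 (0.033). Among the factors themselves the nearest pairs were Dlx6 and Msx1 (0.058), Msx1 and Msx2 (0.063) and Dlx6 and Msx2 (0.075). Of the 4 that fell, Dlx3 and Dlx5 were nearest (0.110). The farthest of all pairs was Creb3l1 and Msx1 (0.555), which had the lowest and highest differences of the factors (-0.91 and 0.16).

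Markers of other cells moved with genotype too. Of 12 osteoblast markers measured 10 fell and 1 rose, and their mean per array lay from -0.50 to -0.16 in Hyp and from 0.21 to 0.36 in WT, a difference of -0.62. Set against this mean on each array, Sp7 and Dlx3 differed by -0.09 and 0.067 between genotypes, Creb3l1 by -0.28, Dlx5 by 0.20, Atf4 by 0.47 and Dlx6, Msx1 and Msx2 by 0.71 to 0.78. The last 3 values come mostly from the subtracted difference of -0.62. Those of Dlx3, Dlx5 and Atf4 are above 0 only through it, as their gene means differed by -0.56, -0.42 and -0.15. Most of these markers are also listed as Runx2 and Sp7 targets and were chosen with earlier results known. The contrasts were not tested and do not correct for the number of osteoblasts. Macrophage markers rose in 9 of 11 (list means 0.24 to 0.39 in Hyp, -0.43 to -0.29 in WT), endothelial markers in 11 of 11, erythroid markers in 7 of 8 and mast cell and eosinophil markers in 6 of 8. Chondrocyte markers rose in 5 of 12 (list means -0.008 to 0.38 in Hyp, -0.40 to -0.0002 in WT), or in 1 without both WT replicate 3 and Hyp replicate 2, and in 2 or 3 without Hyp replicate 1, 2 or 3 or WT replicate 1. Hypertrophic chondrocyte markers gave 1 higher and 1 lower of 3, osteocyte markers 3 higher and 2 lower of 9, stroma and fat markers 3 higher and 1 lower of 6, B lineage markers 3 lower of 9 and osteoclast markers 1 lower of 10. With 1 array left out these smaller counts ranged from 1 to 2 lower for osteocytes, 1 to 2 higher for hypertrophic chondrocytes, 0 to 1 lower for stroma and fat, 1 to 3 lower for the B lineage and 0 to 2 lower for osteoclasts. The part of these cell types in the factors' differences was not tested.

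None of 18 skeletal muscle markers passed, but all 18 had differences below 0 (median -0.724). Their mean per array differed by -0.69 between genotypes and ranged from -1.24 (Hyp replicate 2) to 1.95 (WT replicate 3). With that mean as a covariate Creb3l1, Sp7, Dlx3 and Dlx5 lay at -0.86, -0.68, -0.60 and -0.43 (limma adjusted p from 0.000586 to 0.00107). With both of these arrays left out they lay at -0.81, -0.67, -0.58 and -0.43 (limma adjusted p from 0.000439 to 0.00466). The same number of factors, 4 lower and none higher, passed both times.

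**Figure D4:**
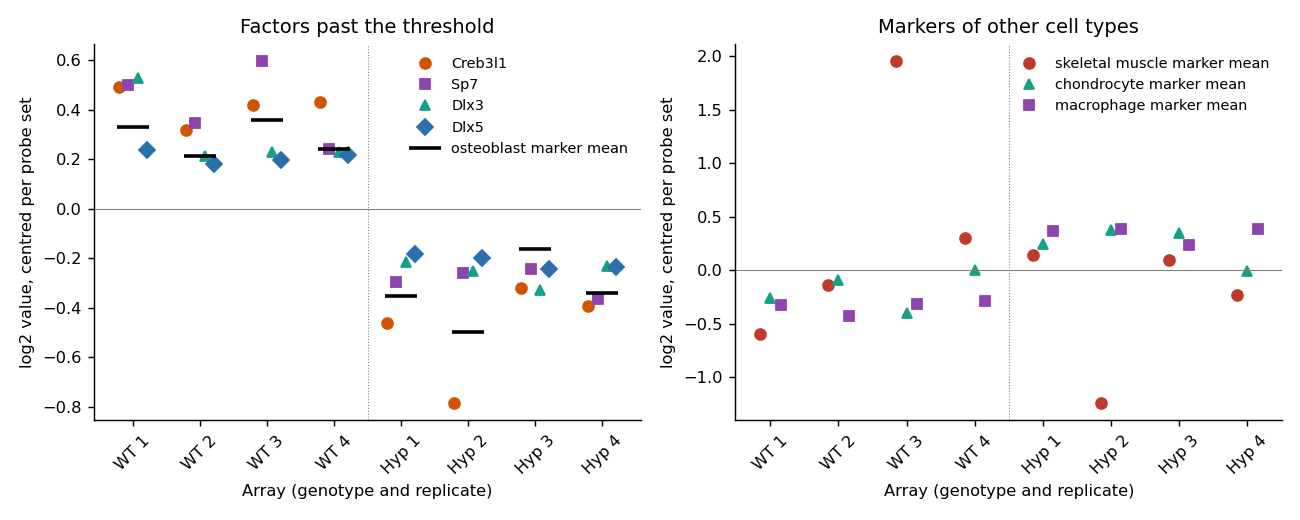
Left, values of the 4 factors that passed and the mean of 12 osteoblast markers on each array; right, means of skeletal muscle, chondrocyte and macrophage markers (y axes, log2 value centred per probe set; x axes, array). The factors and osteoblast markers are above 0 on every WT array and below 0 on every Hyp array, while the muscle mean peaks at 1.95 in WT replicate 3.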

How the data were processed

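Expression was measured on 8 one-colour arrays with biotin-labelled RNA, per the labels. The authors deposited 1 log2 value per probe set and array, made with RMA per the submitters' processing notes; version and build are not given in the sources used here. The largest absolute row median was 5e-07, so the deposited log2 values were centred per probe set, a step no label records. The log base, not stated, was taken as 2. Precision is limited by the number of arrays; over all probe sets the SE of Hyp minus WT had a median of 0.081.

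The table held 45101 probe sets, and 64 platform controls were excluded. The annotation gave 1 symbol for 34945, several for 932 and none here for 9160. Symbols were updated through RefSeq (GRCm38.p6), used also for gene order. Differences between genotypes were fitted with limma 3.58.1 (R 4.3.3; lmFit, eBayes, no covariate, two-sided, Benjamini-Hochberg over all probe sets, threshold 0.05), and likewise on 18193 gene means and on 30372 pairs of probe sets. Pairs of factors were tested with exact permutation over 70 arrangements. SE are from the fit and SD between arrays. The procedure was tested on simulated data.

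The members and the 23 gene lists (11 of related genes, 12 of cell type markers) were chosen with earlier results of these data known. Named were all member probe sets, up to 3 genes per related list with the smallest p among those past the threshold, and the 3 genes nearest to each changed factor. Alternatives were a replicate block, other normalizations, array weights, a robust prior, other thresholds, an SD filter, other probe set choices, a muscle covariate and leaving arrays out. Applying them to list counts and to genes named from lists was chosen after seeing the data. The planned pair of Runx2 and Sp7 was not run. The labels do not say what a shared replicate number means.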

Additional observations from a re-analysis of the deposited data

Results flagged for a closer look

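On the gene mean of Dlx3, WT replicate 1 read 0.53 while the other 3 WT arrays read from 0.21 to 0.23, so that its gap to the nearest array was 0.946 of the group's range. It was the only array to stand apart in this way among 34 groups of 4 arrays examined (13 probe sets and 4 gene means over several probe sets, in 2 genotypes), where chance gives about 1 in 20. Without WT replicate 1 Dlx3 lay at -0.48 (limma adjusted p = 0.00074).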

How the results depend on the processing

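The differences of Creb3l1, Sp7, Dlx3 and Dlx5 on gene means kept their direction and stayed past the threshold under every alternative run (20 each, 19 for Dlx5). In the order named, they ranged from -0.96 to -0.81, -0.77 to -0.66, -0.72 to -0.48 and -0.43 to -0.41. The setting without shared-probe suffix left out every probe set ending in _x_at, _s_at or _a_at. It thereby dropped the only probe set of Dlx5, 1449863_a_at, whose probes were not shown to match other genes. Member probe sets that fell numbered 5 to 7. The count of members that rose changed from 0 to 1 probe set with array weights (Msx2 1438351_at, limma adjusted p = 0.0478), and to 2 probe sets and 1 gene at a threshold of 0.1. At 0.01, 844 of all probe sets fell and 458 rose, and 618 and 407 genes; at 0.1, 2714 probe sets and 1891 genes rose. Probe sets that rose were 2206 with array weights and 965 with the SD filter. With 1 array left out, 1055 to 1975 probe sets fell and 625 to 2125 rose, and 605 to 1437 genes rose. The Atf4 gene mean turned to 0.013 without shared-probe suffix, and was -0.48 when only its most variable probe set was kept (limma adjusted p = 0.00699) and -0.18 without WT replicate 2 (adjusted p = 0.0484). Hoxa10 turned to 0.025 (limma adjusted p = 0.799) without shared-probe suffix. Leaving out 1 array, Msx2 1449559_at ranged from -0.084 to 0.016, and the contrast of the Msx1 probe sets from -0.088 to 0.048. Under the same, Dlx5 minus Dlx6 ranged from -0.54 to -0.47, Dlx3 minus Dlx5 from -0.16 to -0.069 and Msx1 minus Msx2 from 0.040 to 0.092, and the member pairs of probe sets past the threshold from 0 to 1. The 62 other named genes gave 1153 of 1228 alternatives with the same call, 74 with the threshold missed and 1 reversed. The cause of these changes was not tested.

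Replicate numbers were not taken to pair the arrays in the main fit, and the labels do not say what a shared number means. Deviations of same-numbered pairs correlated at 0.145, -0.044, 0.262 and 0.179, with 3 of 4 over 0.1. A batch shared by number was therefore not excluded. Hyp replicates 3 and 4 correlated best with the WT array of their own number, and Hyp replicates 1 and 2 did not. With the replicate block 1723 probe sets fell and 1267 rose, and 6 member probe sets and 4 member genes fell. Of the 62 named genes Eif2ak3 and Acan missed the threshold (limma adjusted p = 0.0615 and 0.0627), and 2 chondrocyte markers rose in place of 5. Dlx5 minus Dlx6 and Dlx3 minus Dlx5 stayed at -0.51 and -0.14, with exact adjusted p = 0.188 for both, since sign changes over 4 pairs cannot give a p small enough to pass.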
